A study of Homo sapiens
Mus musculus and Mus musculus and Homo sapiens with 16 samples.

Results

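Antisense long noncoding RNAs are transcribed from the strand opposite another gene, and 97 genes listed as antisense were counted well in REC-1 mantle cell lymphoma cells. The members were chosen by their counts: a gene was taken if the human table listed its biotype as antisense and gave it at least 20 counts in every one of the 12 REC-1 libraries. That minimum kept 97 of 5526 antisense genes, in a table of 58051 genes, and 400 antisense genes had enough counts to be tested at all. The members are therefore the well-expressed end of their class by choice, and an antisense gene that was high in one group and nearly absent in another could not become a member.

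The libraries came from a coculture experiment in which REC-1, a human mantle cell lymphoma line of B cell origin, was placed on MS-5, a mouse bone marrow stromal line, for 24 h. Sep cells were REC-1 grown alone, Susp cells were the REC-1 fraction that stayed in suspension above the stroma, and Adh cells were REC-1 harvested attached to MS-5, with 4 libraries in each group. All groups shared one medium, the labels name no drug or engineered allele, and each comparison is of 1 lymphoma line with 1 stromal line. The Adh harvest held both species, its reads were assigned to human or mouse by sequence, and 18.3% to 28.2% of its assigned counts were human.

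Antisense genes take several forms. Some start near the start of a coding gene on the other strand (head to head), and either run away from it or overlap its first part. Some overlap the exons of a coding gene on the other strand farther from its start, and some meet a coding gene only in its introns. Many such RNAs are kept in the nucleus or are broken down by the nuclear RNA exosome soon after they are made. Others act as precursors: the small nucleolar RNA (snoRNA) host genes carry in their introns the guides for modification of ribosomal RNA, and microRNA host genes carry the hairpins from which microRNAs are cut. The libraries were made from polyadenylated RNA with a kit that does not keep the strand, so reads from a gene and its antisense partner cannot be told apart where their exons overlap, and mature microRNAs and snoRNAs were not measured.

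The sequences of the members whose levels changed between groups show these forms. The member listed as MIR142 (ENSG00000265206) is not the microRNA but its host gene, named MIR142HG in GENCODE release 44, a single exon of 1645 bases at chr17:58330879-58332523 on the minus strand (GRCh38). The hairpin gene inside it, chr17:58331232-58331318 on the same strand, is 87 bases long and begins 1205 bases after the start of the host gene.
MIR142 hairpin: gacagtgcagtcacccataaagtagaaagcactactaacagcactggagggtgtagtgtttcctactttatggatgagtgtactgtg

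Below are the windows from 250 bases before to 50 bases after the start of the canonical transcript of 3 of the members that were called in any comparison, read 5′ to 3′ on the strand of the gene from GRCh38. Capitals mark matches, on either strand, to the motifs GGGCGG (an Sp1-type GC box) and CACGTG (an E box), and the windows are shown because they differ widely in composition. The MIR142 window, chr17:58332474-58332773, holds 17 CG dinucleotides. The GABPB1-AS1 window, chr15:50355217-50355516 on the plus strand, lies inside the outer bounds of the gene, since other transcripts start before the canonical one. It holds 30 CG dinucleotides and covers most of the stretch up to the start of GABPB1, which lies 269 bases away on the other strand. The SLC25A25-AS1 window, chr9:128118644-128118943 on the minus strand, is built of short repeats and holds 3 CG dinucleotides.
MIR142: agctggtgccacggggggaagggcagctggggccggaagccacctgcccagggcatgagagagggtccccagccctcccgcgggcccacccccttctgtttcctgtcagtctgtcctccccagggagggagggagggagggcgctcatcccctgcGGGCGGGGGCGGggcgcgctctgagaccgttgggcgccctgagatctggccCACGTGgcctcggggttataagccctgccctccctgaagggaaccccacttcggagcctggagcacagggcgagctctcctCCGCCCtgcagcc
GABPB1-AS1: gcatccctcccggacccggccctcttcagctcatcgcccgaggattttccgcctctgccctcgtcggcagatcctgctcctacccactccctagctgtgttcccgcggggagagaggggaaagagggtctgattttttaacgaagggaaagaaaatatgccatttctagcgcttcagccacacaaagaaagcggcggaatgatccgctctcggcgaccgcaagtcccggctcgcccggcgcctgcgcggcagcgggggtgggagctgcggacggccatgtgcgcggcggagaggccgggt
SLC25A25-AS1: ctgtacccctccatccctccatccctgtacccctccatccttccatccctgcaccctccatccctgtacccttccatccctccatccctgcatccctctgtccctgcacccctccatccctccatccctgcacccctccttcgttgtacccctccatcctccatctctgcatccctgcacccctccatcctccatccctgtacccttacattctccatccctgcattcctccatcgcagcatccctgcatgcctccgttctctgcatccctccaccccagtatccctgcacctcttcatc

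Over all 94 members with a gene model, these start windows were rich in CG. The median was 19.5 CG dinucleotides a window in the members, 4 in the 14156 long noncoding genes of the same annotation and 13 in its 33771 coding and long noncoding genes. GGGCGG was found in 48 of 94 member windows (51.1%), against 21.4% of long noncoding and 44.8% of all windows. TATAAA was found in 21.3% of member windows and 12.3% of all windows, CCAAT in 37.2% and 35.5%, CACGTG in 7.45% and 7.39%, and the ETS motif CCGGAAGT in 4.26% and 4.18%. The motif of NRF1 was found in 1.06% and 1.18%, and TGACGTCA, the full cAMP response element, in 0% and 1.87%. Expressed genes were set here against all annotated genes, so these shares are a description.

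Human counts per library ranged from 9325412 to 12597891 in Sep, from 15000927 to 21467832 in Susp and from 7758979 to 13241751 in Adh cells. In the shallow Adh libraries 20 counts stood for up to 2.57 CPM (counts scaled to a common library size by the TMM method), and in the deepest Susp library for 0.967 CPM, so the minimum was hardest to meet in Adh cells. The 9 B cell and mantle cell lymphoma markers summed to between 4854 and 6317 CPM over the 12 libraries, with CCND1, CD79A and MS4A1 high and CD5 low, at 0.137 RPKM (CPM divided by the exon length in kilobases). The 15 fibroblast markers summed to 14.8 to 23.2 CPM in Sep, 14.8 to 20.1 in Susp and 10.1 to 15.8 in Adh cells, and THY1, LUM, CXCL12 and PDGFRA had no count in any library. Susp replicate 2 stood apart from the other Susp libraries: over all genes, its chi-square against each of them was 52.8 to 57.4 per degree of freedom, against 6.76 to 10.1 among those 3. The member calls, and the counts of members and snoRNA host genes at an unadjusted p below 0.05, that involve Susp cells are therefore also given without it. The study describes the libraries of a group as independent experiments, and neither it nor the labels say whether libraries with the same number came from one experiment.

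The members were expressed at low levels. Their mean over the 12 libraries ran from 2.49 to 112.6 CPM with a median of 6.54 CPM. Of the 97, 63 stood below 10 CPM and 18 above 20 CPM, and the 8 with most counts took 38.8% of all member counts. Per exon length, the median of the 94 members with a gene model was 1.71 RPKM, beside 5.87 RPKM for the 11243 coding genes tested. Exon lengths came from another annotation than the counts, and the part of this in the difference was not tested. The members took 0.133 ± 0.00614% of human counts in Sep, 0.128 ± 0.00474% in Susp and 0.124 ± 0.00287% in Adh cells (SD, n = 4 each). Within a group their CPM had a median coefficient of variation of 16.9%, against 11.6% in the 9597 coding genes with the same count minimum.

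The 8 members with the highest level per length were led by CTD-2510F5.4 at 43.6 RPKM, a gene of 321 exon bases that GENCODE release 44 names PRR11-AS1. Every one of those bases lies on exons of the other strand, among them those of PRR11, so its level cannot be separated from PRR11 reads in these libraries. Its CPM was 15.2, 11.9, 14.96 and 15.6 in Sep, 15.6, 13.95, 13.4 and 13.9 in Susp and 12.6, 11.1, 14.8 and 15.01 in Adh cells. The groups overlapped fully. NAALADL2-AS2 followed at 29.96 RPKM, with 32.8, 34.1, 28.9 and 25.5 CPM in Sep, 31.9, 26.4, 28.9 and 29.3 in Susp and 36.7, 32.5, 33.7 and 32.6 in Adh cells. All 4 Adh libraries lay above all 4 Susp libraries, by a log2 fold change of 0.22 ± 0.11 (SE) that was not called (adjusted p = 0.306, edgeR quasi-likelihood). NAALADL2-AS2 lies in introns of NAALADL2, a peptidase-like gene, with no base on its exons.

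SNHG7, a snoRNA host gene that carries SNORA17A and SNORA17B, had 21.97 RPKM. Its CPM was 66.5, 86.5, 88.8 and 109 in Sep, 98.8, 172, 131 and 136 in Susp and 76.9, 105, 105 and 114 in Adh cells. Susp replicate 2 was the highest library, and the ranges of Susp and Sep cells met. FGD5-AS1 had 15.2 RPKM, with 105, 93.5, 97.9 and 96.1 CPM in Sep, 97.3, 77.4, 88.7 and 94.1 in Susp and 85.7, 83.9, 84.4 and 101 in Adh cells. The groups overlapped, and its sense gene FGD5, an exchange factor for small GTPases, had at most 1 count in any library. FGD5-AS1 starts 841 bases from NR2C2, an orphan nuclear receptor gene, with the 2 transcripts overlapping at their starts.

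The remaining members of the 8 were short or lowly counted genes and MIR142, described below at 13.7 RPKM. RP11-1334A24.6 (PDLIM7-AS1 in GENCODE release 44) had 18.1 RPKM and 5.43, 9.87, 7.64 and 8.37 CPM in Sep, 7.83, 8.85, 10.6 and 8.86 in Susp and 5.04, 6.64, 9.89 and 5.39 in Adh cells. CTB-131K11.1, which starts 167 bases from FBXL20, had 12.5 RPKM and 13.3, 15.1, 14.4 and 10.6 CPM in Sep, 11.2, 11.2, 13.2 and 13.2 in Susp and 15.5, 14.8, 13.5 and 12.4 in Adh cells. RP11-613M10.6 had 11.2 RPKM over 289 exon bases and 2.76, 3.43, 5.02 and 2.23 CPM in Sep, 2.26, 5.04, 2.80 and 3.49 in Susp and 2.10, 2.79, 3.47 and 3.59 in Adh cells. In these 3 genes the groups overlapped in every comparison. Coding exons of the other strand cover 66.8% of the exon bases of RP11-1334A24.6 and 71.6% of those of CTB-131K11.1. The levels of these 2 genes therefore cannot be separated from reads of the coding genes there.

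At the threshold, the 3 members just inside were CCDC144NL-AS1, AC098617.1 and FLJ37453, each with a lowest count of 20. The 3 antisense genes just outside were RP11-67C2.2, with a lowest count of 19, and KCNMB2-AS1 and FOXD2-AS1, with 18 each. The lowest library of CCDC144NL-AS1, AC098617.1 and RP11-67C2.2 was in each case an Adh library, while that of FLJ37453 was Susp replicate 1, that of KCNMB2-AS1 Sep replicate 3 and that of FOXD2-AS1 Adh replicate 3.

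Adhesion was compared first within the coculture, between Adh and Susp cells. By edgeR 3 members were lower in Adh cells and none was higher: 3 of 97 were called at an adjusted p of 0.05 or less with a change of 1.5-fold or more, where 0.778% of the 12861 genes tested were called in either direction and 0.669% were lower. They were MIR142, SLC25A25-AS1 and SNHG12. DESeq2, the replicate block and no low-count filter each called 5, the same 3 with GABPB1-AS1 lower and NNT-AS1 higher. Over all the genes they tested, these settings called 2.19%, 2.18% and 1.2% in that order. The log2 fold change was above 0 in 47 members and below 0 in 50, with a median of -0.0021 beside -0.0051 over all genes tested. At an unadjusted p below 0.05 there were 17 members, 8 higher and 9 lower, which is 17.5% where all genes gave 18%. Without Susp replicate 2 there were 11, 6 higher and 5 lower. The groups did not overlap for 12 members, or 12.4%, where all genes gave 11.4%. These shares lie near those of all genes. In the 9981 genes of other biotypes with the same count minimum, 18.9% had an unadjusted p below 0.05 and 12.1% did not overlap.

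**Figure D1:**
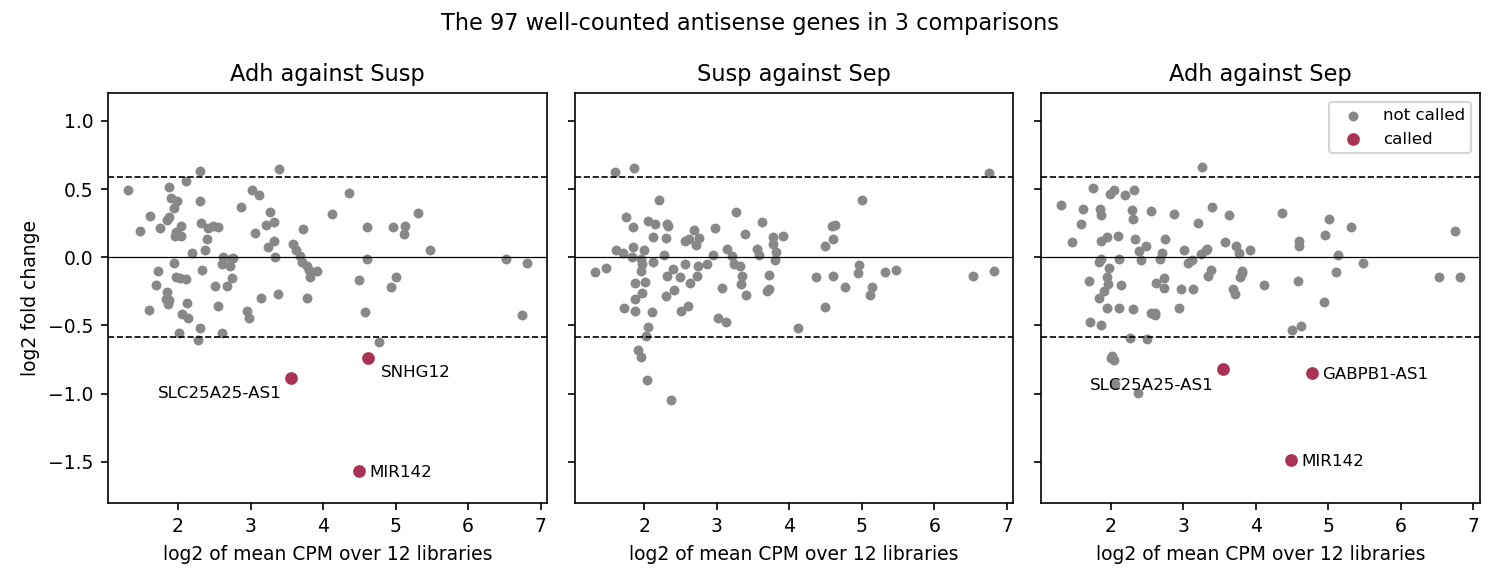
Log2 fold change (vertical axis) against the log2 of mean CPM over 12 libraries (horizontal axis) for the 97 members in each of the 3 comparisons, with called members in red and dashed lines at a 1.5-fold change. There are 3 called members between Adh and Susp cells, none between Susp and Sep cells and 3 between Adh and Sep cells, and all the calls lie below 0.

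MIR142, the host gene of a microRNA of blood cells, was the member with the largest difference. Its CPM was 23.0, 47.6, 23.0 and 24.6 in Susp and 8.57, 12.3, 10.5 and 8.47 in Adh cells, from counts of 346 to 774 and 66 to 128. Every Adh library lay below every Susp library, and Susp replicate 2 stood far above the other Susp libraries. The mean was 29.5 ± 12.1 CPM in Susp and 9.97 ± 1.83 in Adh cells (SD, n = 4 each), a log2 fold change of -1.57 ± 0.31 (SE) or 2.96-fold lower (adjusted p = 0.0199). In bulk RNA, fewer cells that express a gene and less of its RNA in each cell cannot be told apart. Without Susp replicate 2 the log2 fold change was -1.22 with an adjusted p of 0.0308. The call was lost without Adh replicate 1 (adjusted p = 0.0819), Adh replicate 3 (0.0606) or Adh replicate 4 (0.0645), with log2 fold changes of -1.49, -1.59 and -1.50. The mouse gene of the same symbol was listed at 0 in all 4 Adh libraries. It was matched by symbol alone, and whether it covers the mouse host gene was not checked. The part of misassigned mouse reads in the result was therefore not tested. MIR142 also lies within the bounds of another member on the other strand, TSPOAP1-AS1 (chr17:58324472-58415766). Whether the exons of these 2 genes overlap was not checked.

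SNHG12, a snoRNA host gene at chr1:28578538-28583132 that carries SNORA16A, SNORA44, SNORA61 and SNORD99, was lower in Adh cells as well. It had 28.0, 38.3, 26.5 and 28.1 CPM in Susp and 18.7, 15.8, 18.2 and 19.8 in Adh cells. The Adh libraries were tightly grouped and all lay below the Susp libraries. The log2 fold change was -0.74 ± 0.15 (adjusted p = 0.0204), and -0.59 without Susp replicate 2 (adjusted p = 0.0326). The call was lost without Adh replicate 1, 2 or 3, with adjusted p-values of 0.0619, 0.0737 and 0.0612. Mouse Snhg12 had 228 to 255 counts in the Adh libraries, where human SNHG12 had at most 249, and the part of misassigned mouse reads in the result was not tested.

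SLC25A25-AS1 lies at chr9:128108581-128118693 opposite SLC25A25, which encodes a mitochondrial carrier of ATP-magnesium and phosphate, with 10.4% of its exon bases on exons of that gene. It had 16.5, 14.6, 11.5 and 13.97 CPM in Susp and 6.31, 9.82, 6.81 and 7.70 in Adh cells. The groups did not overlap, and the gap between the highest Adh and the lowest Susp library was small. The log2 fold change was -0.88 ± 0.19 (adjusted p = 0.0350). It missed the threshold without Susp replicate 2 (-0.85, adjusted p = 0.0524), and also without Susp replicate 1 (0.0773), Susp replicate 4 (0.0840), Adh replicate 1 (0.138), Adh replicate 3 (0.105) or Adh replicate 4 (0.0751), at log2 fold changes from -0.89 to -0.79.

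**Figure D2:**
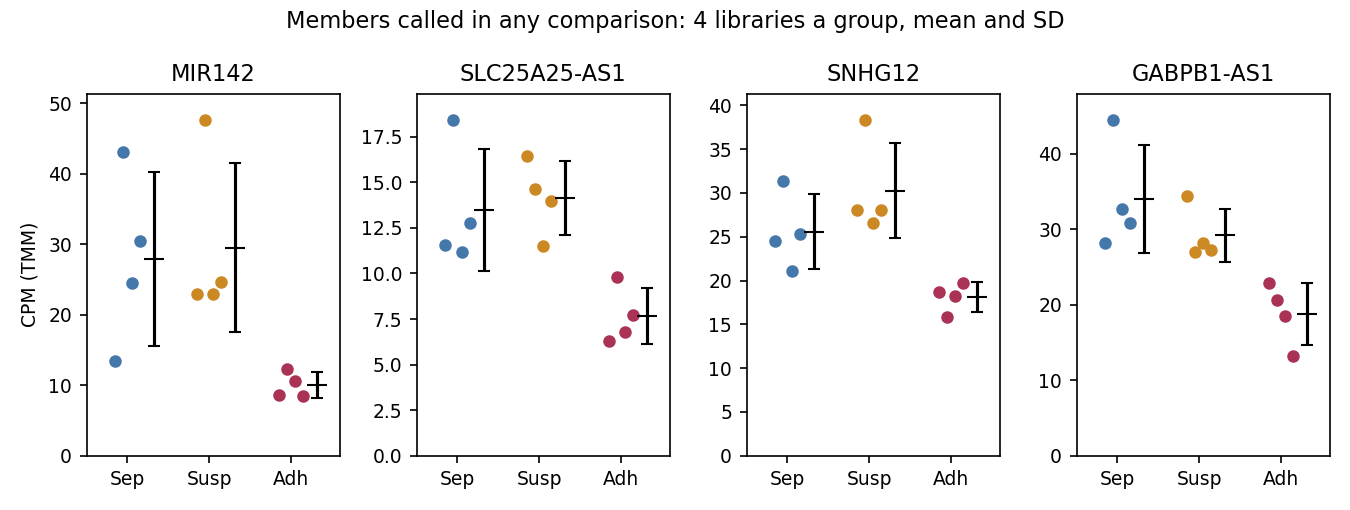
CPM of the 4 members called in any comparison (vertical axis, from 0) in the 4 libraries of each group (points, in replicate order) with the group mean and SD in black. The Adh libraries lie below the Susp libraries in all 4 genes, and the highest point of MIR142 and of SNHG12 in Susp cells is replicate 2.

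The 5 largest rises in Adh against Susp cells were not called by edgeR. NNT-AS1, which starts 42 bases from NNT, the mitochondrial transhydrogenase gene, had 7.57, 6.58, 9.28 and 10.1 CPM in Susp and 14.1, 11.7, 14.3 and 12.3 in Adh cells. The Adh libraries all lay above, at a log2 fold change of 0.64 ± 0.16 (adjusted p = 0.0672). NNT-AS1 was called by DESeq2 (0.65, adjusted p = 0.00995), with the replicate block (0.65, 0.0333) and with no low-count filter (0.63, 0.0378), and without Susp replicate 2 it had 0.56 (0.0892). The other 4 were RP5-991G20.1 (0.63, adjusted p = 0.193), AC009403.2 (0.56, 0.188), RP11-282O18.3 (0.52, 0.313) and RP11-110G21.1 (0.49, 0.240). Of these, only AC009403.2, annotated in GENCODE release 44 as the divergent transcript of RBM33, had groups that did not overlap. Among the 5 largest falls, GABPB1-AS1 (-0.62 ± 0.17, adjusted p = 0.0870) and AC074117.10 (-0.61 ± 0.28, adjusted p = 0.267) were not called by edgeR. DESeq2 called GABPB1-AS1 (-0.62, adjusted p = 0.0264), as did the replicate block (-0.64, 0.0258) and no low-count filter (-0.63, 0.00168), while without Susp replicate 2 it had -0.64 (0.0832).

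Coculture without adhesion was read from Susp against Sep cells. By edgeR 0 of 97 members were called in that comparison, where 0.731% of all genes were called in either direction and 0.303% were lower. At an unadjusted p below 0.05 there were 14 members (14.4%, all genes 16.7%), 4 higher and 10 lower in Susp cells, with 8 left without Sep replicate 2 and 12 without Susp replicate 2, and DESeq2 called 2, SNHG7 higher and LL22NC03-86G7.1 lower, the latter named here after its values were seen. The groups did not overlap for 7 members, 7.22%, where all genes gave 11.3%. In the 9981 genes of other biotypes with the same count minimum the 2 shares were higher, 19.4% and 12.8%. The smallest p-value belonged to ZFAS1, a snoRNA host gene that starts 585 bases from ZNFX1 and carries SNORD12, SNORD12B and SNORD12C. It had 27.5, 27.4, 26.5 and 27.4 CPM in Sep and 35.2, 43.9, 33.1 and 33.1 in Susp cells. All Susp libraries lay above all Sep libraries, which were nearly equal, and the log2 fold change was 0.42 ± 0.11 (adjusted p = 0.0797). SNHG7, with the values above, had a log2 fold change of 0.62 ± 0.17 (adjusted p = 0.0932). Without Susp replicate 2 these values were 0.31 (adjusted p = 0.152) for ZFAS1 and 0.47 (0.165) for SNHG7, while without Susp replicate 1 SNHG7 was called (0.74, adjusted p = 0.0275).

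The third comparison, Adh against Sep cells, shares its libraries with the others and combines coculture with adhesion. Again 3 of 97 members were called, all lower in Adh cells, where 2.4% of all genes were called and 1.82% were lower. At an unadjusted p below 0.05 there were 21 members (21.6%, all genes 20.2%), 7 higher and 14 lower. The groups did not overlap for 19 members, 19.6%, where all genes gave 15.7%. In the 9981 genes of other biotypes with the same count minimum the 2 shares were 20.3% and 17.1%.

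GABPB1-AS1 had the smallest p-value of this comparison. It lies at chr15:50354944-50372202 and starts head to head with GABPB1, which encodes a subunit of the ETS factor GABP. Its CPM was 28.2, 44.4, 32.6 and 30.9 in Sep, 34.4, 27.0, 28.1 and 27.2 in Susp and 22.9, 20.6, 18.5 and 13.2 in Adh cells. Sep replicate 2 was the highest library and Adh replicate 4 the lowest, and the Adh libraries lay below both other groups. From 34.0 ± 7.17 CPM in Sep to 18.8 ± 4.12 in Adh cells (SD, n = 4 each) the log2 fold change was -0.85 ± 0.17 (adjusted p = 0.0106). Without Sep replicate 2 it was -0.69 with an adjusted p of 0.0565. Leaving out any other single library kept the call.

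MIR142 and SLC25A25-AS1 were called in this comparison too. MIR142 had 13.5, 43.1, 24.5 and 30.5 CPM in Sep cells, a wide spread within the group, and its log2 fold change was -1.48 ± 0.31 (adjusted p = 0.0141). Its call was lost without Sep replicate 2 (-1.19, adjusted p = 0.0667) or Adh replicate 1 (-1.41, 0.0504). SLC25A25-AS1 had 11.6, 18.4, 11.2 and 12.8 CPM in Sep cells and a log2 fold change of -0.82 ± 0.19 (adjusted p = 0.0288). Its call was lost without Sep replicate 2 (-0.63, adjusted p = 0.115), Sep replicate 4 (0.0578), Adh replicate 1 (0.0913), Adh replicate 3 (0.0816) or Adh replicate 4 (0.0663). SNHG12 had 24.5, 31.4, 21.1 and 25.4 CPM in Sep cells and a log2 fold change of -0.50 ± 0.15 that was not called (adjusted p = 0.0702).

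The count of called members rests on the count minimum. Outside the members, 303 further antisense genes were tested. CAPN10-AS1 was called lower in Adh against Susp cells (-1.59), RP11-829H16.3 lower in Susp against Sep cells (-1.65), and 14 were called lower in Adh against Sep cells, STARD4-AS1 (-2.13) and CTBP1-AS (-1.75) among them. These were named after their values were seen. Their lowest counts were 0 to 16. The calls were 0.33%, 0.33% and 4.62% of the 303 in the 3 comparisons in that order, where all genes gave 0.778%, 0.731% and 2.4%. None of the 303 was called higher in any comparison by edgeR. At an unadjusted p below 0.05 the numbers higher were 6 in Adh against Susp, 3 in Susp against Sep and 3 in Adh against Sep cells. The median log2 fold change of these 303 genes was -0.29, -0.16 and -0.48 in the 3 comparisons in that order, beside -0.0021, -0.057 and -0.034 in the 97 members. As a minimum in every library removes genes that fell in the shallow Adh libraries, the 2 sets of medians cannot be compared as effects. Such genes are left among the 303, so the direction of the calls and medians of the 303 is partly set by that choice. With a mean of 20 counts in place of the minimum, 201 antisense genes were kept and 12 of them were called in Adh against Sep cells.

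Of the members, 40 are named for a sense gene, with a name that ends in -AS and a number, and for 36 of these both genes were tested. In the other 4 the sense gene was hardly counted: FGD5, CCDC144NL, NUTM2A and NUTM2B had at most 10 counts in any library. NUTM2A-AS1 and NUTM2B-AS1 are near-identical copies whose shared reads the counting may have dropped, so their levels are uncertain. Per length, the sense gene was the higher one in 29 of 36 pairs. Among the others NAALADL2-AS2 stood out, with 29.96 RPKM against 0.550 for NAALADL2, followed by CCDC183-AS1 (2.58 against 0.312), TRAF3IP2-AS1 (1.45 against 0.247) and CARD8-AS1 (7.66 against 1.42). At the other end NOP14, a factor of small ribosomal subunit assembly, had 83.7 times the RPKM of NOP14-AS1.

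**Figure D3:**
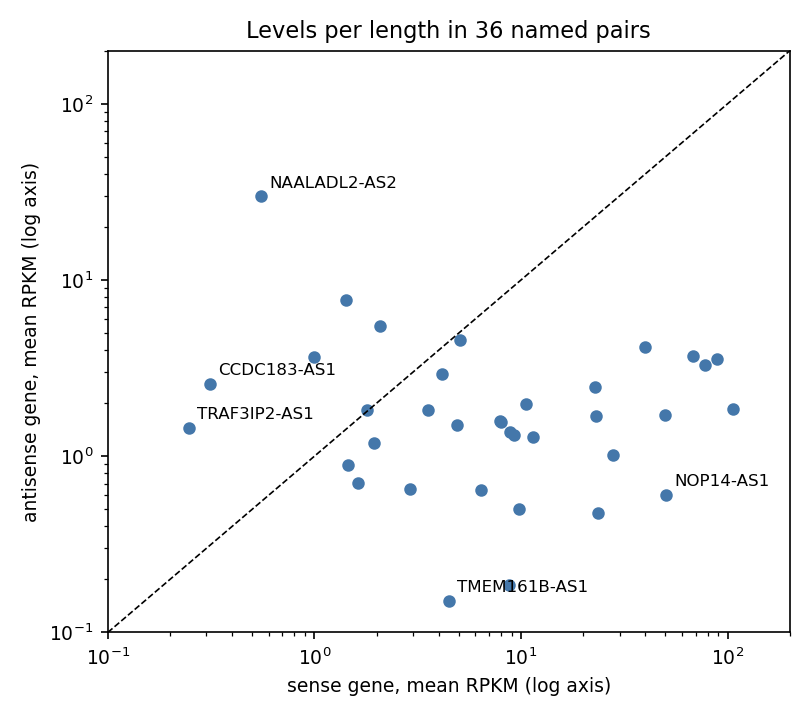
Mean RPKM over the 12 libraries of the antisense gene (vertical, log axis) against its sense gene (horizontal, log axis) for 36 named pairs, with the dashed line at equal levels. In 29 pairs the point lies below the line, and NAALADL2-AS2 lies farthest above it.

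No sense gene was called in any comparison by edgeR or by DESeq2. By edgeR, BBOX1 in Susp against Sep cells (0.41, adjusted p = 0.0477) passed the adjusted p but not the 1.5-fold minimum. At an unadjusted p below 0.05 there were 7, 5 and 4 of the 36 in Adh against Susp, Susp against Sep and Adh against Sep cells, or 19.4%, 13.9% and 11.1%, where all genes gave 18%, 16.7% and 20.2%. The antisense and the sense gene had the same sign of change in 25, 21 and 19 of the 36 pairs in these comparisons. Reads that fall on both genes of a pair would give the same sign, and their part was not tested.

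Whether an antisense gene moved apart from its sense gene was tested on the log2 ratio of the 2 in each library, with limma over all 111 named pairs in which both genes were tested. In Adh against Sep cells 1 member pair was called, GABPB1-AS1 with GABPB1, where 8.11% of all pairs were called. In Adh against Susp cells none of the 36 was called (3 at an unadjusted p below 0.05, all pairs 0.901% called), and in Susp against Sep cells none (2 at an unadjusted p below 0.05, all pairs 0% called).

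The log2 ratio of GABPB1-AS1 to GABPB1, in CPM, was -0.72, 0.050, -0.31 and -0.74 in Sep, -0.41, -0.46, -0.66 and -0.71 in Susp and -1.19, -1.08, -1.31 and -1.74 in Adh cells. All Adh libraries lay below all others. The ranges of the sense gene overlapped between groups, with 46.5, 42.9, 40.5 and 51.5 CPM in Sep, 45.6, 37.2, 44.5 and 44.7 in Susp and 52.2, 43.6, 46.1 and 44.6 in Adh cells. Its log2 fold change between Adh and Sep cells was 0.040 ± 0.11 (adjusted p = 0.872), and the ratio changed by -0.90 ± 0.24 on the log2 scale (adjusted p = 0.0428). That call is weak: leaving out any library other than Susp replicate 2 took the adjusted p to between 0.0507 and 0.154, while the change itself stayed between -1.002 and -0.74. Between Adh and Susp cells the change was -0.77 ± 0.24 (adjusted p = 0.137).

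For SLC25A25-AS1 the ratio to SLC25A25 changed by -0.53 ± 0.26 between Adh and Susp cells (adjusted p = 0.331) and by -0.59 ± 0.26 between Adh and Sep cells (adjusted p = 0.209), so a change apart from the sense gene was not detected. SLC25A25 itself had 15.4, 22.6, 23.4 and 23.4 CPM in Sep, 23.1, 24.2, 22.6 and 23.0 in Susp and 13.98, 18.1, 16.3 and 26.3 in Adh cells. In Adh cells 3 libraries lay below all Susp libraries and replicate 4 above them, at a log2 fold change of -0.32 ± 0.17 (adjusted p = 0.337). NNT had a log2 fold change of 0.24 ± 0.11 (adjusted p = 0.264), beside 0.64 for NNT-AS1, and their ratio changed by 0.40 ± 0.21 (adjusted p = 0.331).

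**Figure D4:**
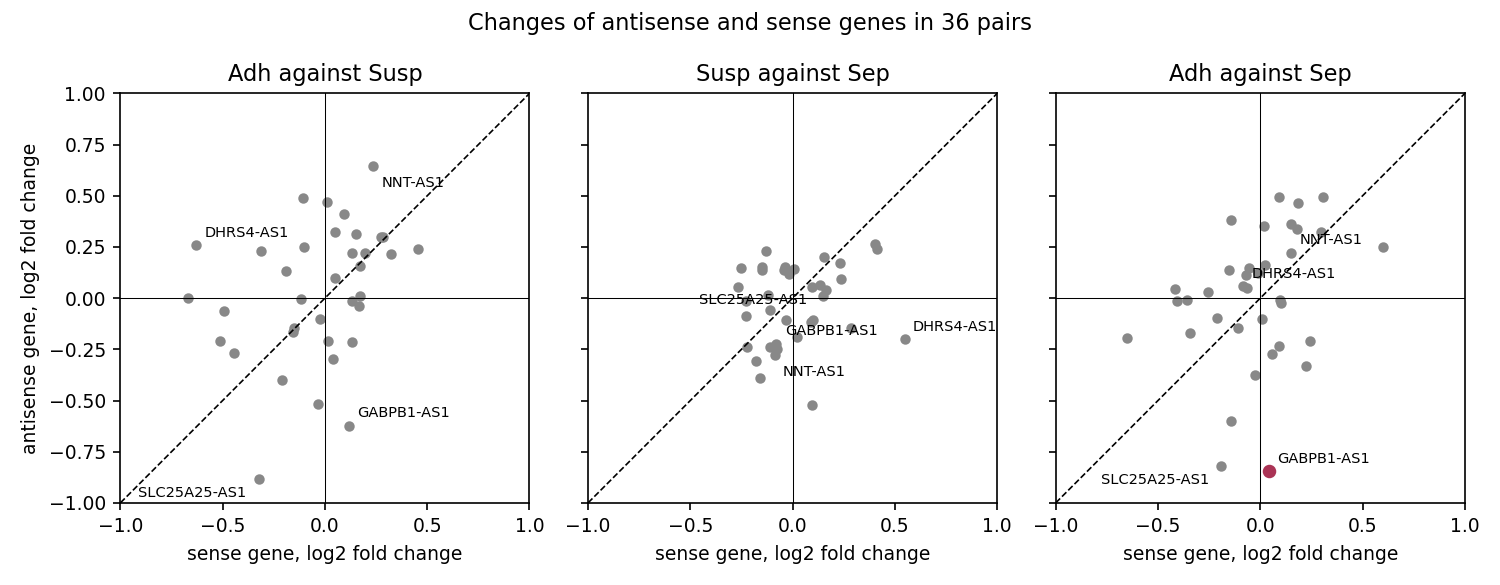
Log2 fold change of the antisense gene (vertical axis) against that of its sense gene (horizontal axis) in 36 pairs for the 3 comparisons, with the dashed line at equal change and the pair whose ratio was called in red. GABPB1-AS1 lies at -0.85 against 0.040 for GABPB1 between Adh and Sep cells.

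By position, 45 of the 94 members with a gene model started within 1000 bases of a coding gene on the other strand. Of the others, 34 had exons on the exons of one, 10 met one only in its introns and 5 had no exon base within one. Those 5 are named without overlap here, although the bounds of NUTM2B-AS1, which is among them, overlap those of NUTM2B. Of the 10, 6 lay wholly within the coding gene, and BBOX1-AS1, LY86-AS1, RP1-45C12.1 and RP11-445F6.2 had 4.24% to 34.1% of their exon bases within it. In 24 of the 94 no exon base lay on an exon of the other strand, in 6 more than 50% did, and 2 lay wholly on such exons. TUG1 and INAFM2, listed as antisense in the deposited table, are coding genes in GENCODE release 44, and 10 members are named there as divergent transcripts. Head to head was set by distance alone. It includes members that overlap the coding gene at their starts, such as FGD5-AS1 and TMPO-AS1. The median level was 1.66 RPKM in the head to head members, 1.46 in those with exon overlap, 2.81 in those in introns and 5.91 in the 5 without overlap.

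Calls were few in each of these forms. Between Adh and Susp cells 0 of 45 head to head members were called by edgeR (7 at an unadjusted p below 0.05), 2 of 34 with exon overlap, 0 of 10 in introns (2 at an unadjusted p below 0.05) and 1 of 5 without overlap, where all genes gave 0.778% called and 18% at an unadjusted p below 0.05. Signs of change follow for Adh against Susp, Susp against Sep and Adh against Sep cells in that order. Of the 34 members with exon overlap, 22, 22 and 27 had values below 0, with median log2 fold changes of -0.096, -0.079 and -0.20. Of the 10 members in introns, 9, 4 and 7 had values above 0, with medians of 0.24, -0.097 and 0.29. Of the 12861 genes tested, 6540, 6539 and 6496 had values below 0, with medians of -0.0051, -0.0059 and -0.0034. The forms were not compared by a test.

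The snoRNA host genes were followed as a list of 17 noncoding genes, of which SNHG7, SNHG12 and ZFAS1 are members. The list was set with earlier results of these libraries known and is a description. In Susp against Sep cells none was called by edgeR, DESeq2 called SNHG7 and SNHG8 higher, and 12 of 17 had an unadjusted p below 0.05 (70.6%, all genes 16.7%), all with higher values in Susp cells, among them SNHG8 (0.65), SNHG6 (0.37) and GAS5 (0.33). The median log2 fold change of the list was 0.33, beside -0.0059 over all genes. In Adh against Susp cells SNHG12 and SNHG3 (-0.62, adjusted p = 0.0194) were called lower by edgeR and by DESeq2, 8 of 17 had an unadjusted p below 0.05 (47.1%, all genes 18%), all with lower values in Adh cells, and the median was -0.23. The 2 comparisons share the Susp libraries, so they are not independent. Without Susp replicate 2 (added once the data had been seen), the 12 became 9 and the 8 became 5, and 1 gene was higher in Adh cells. In Adh against Sep cells, which leave the Susp libraries out, none was called by either tool, 7 had an unadjusted p below 0.05 (41.2%, all genes 20.2%), 4 with higher and 3 with lower values, and the median was 0.14. DANCR (0.40, adjusted p = 0.0304) and SNHG3 (-0.53, adjusted p = 0.0253) passed the adjusted p there but not the 1.5-fold minimum.

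**Figure D5:**
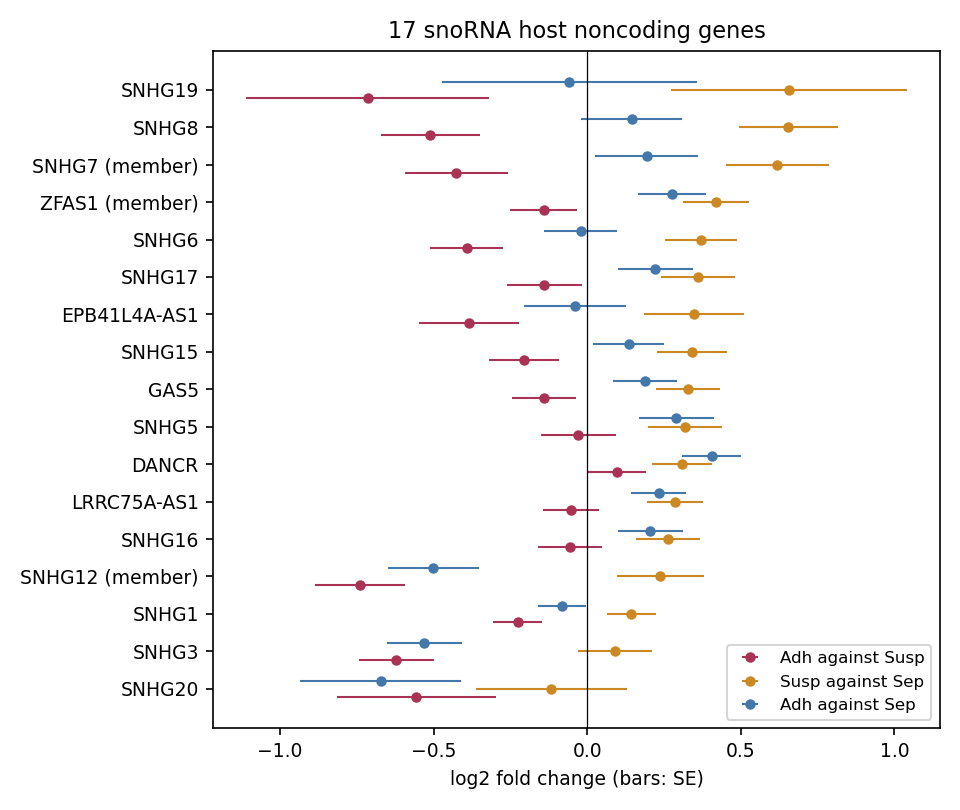
Log2 fold change with SE (horizontal axis) of 17 snoRNA host noncoding genes in the 3 comparisons, sorted by Susp against Sep cells, with the antisense members marked. Susp against Sep values lie above 0 in 16 of 17 genes and Adh against Susp values below 0 in 16 of 17. Adh against Sep values lie below 0 in 7 of 17, with SNHG12 and SNHG3 among them and SNHG20 lowest at -0.67.

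Genes of RNA decay were read beside the members because their products limit the levels of such RNAs. Among 18 genes of the nuclear RNA exosome and its adaptors none was called in any comparison by edgeR or DESeq2, with 1, 3 and 3 at an unadjusted p below 0.05 in Adh against Susp, Susp against Sep and Adh against Sep cells (5.56%, 16.7% and 16.7%, all genes 18%, 16.7% and 20.2%). EXOSC5, an exosome core subunit, had the widest difference, 0.57 in Susp against Sep cells (adjusted p = 0.0971). Among 10 genes of nonsense-mediated decay none was called by either tool, and none had an unadjusted p below 0.05 in any comparison. Their medians lay between -0.053 and -0.026.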

How the data were processed

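Polyadenylated RNA of REC-1 cells, grown alone or with MS-5 cells, was sequenced with an unstranded TruSeq kit. According to the study's methods and the submitters' processing notes, the authors separated human from mouse reads with Xenome, aligned them with STAR 2.5.1b to GRCh38 or GRCm38 and counted reads per gene with featureCounts (Subread 1.5.2). The strand setting of the counting is not given in the sources used here. The deposited values are raw counts per gene, and 20 further columns of per-sample values were not used.

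Genes passing filterByExpr (12861) were fitted in edgeR 4.0.16 (R 4.3.3) with TMM scaling and the quasi-likelihood test, in 1 model of Sep, Susp and Adh cells, with Benjamini-Hochberg adjustment over all of them. A gene was called at an adjusted p of 0.05 or less if it changed 1.5-fold or more. Ratios of an antisense to its sense gene were tested with limma 3.58.1 on log2 CPM values (prior count 2). Both were tested on simulated data. Gene models, exon lengths for RPKM and start windows came from GENCODE release 44 on GRCh38, which can differ from the annotation the authors counted with. It held 94 of the 97 members.

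The members and lists were chosen with earlier results of these data known. Named genes were members called in any comparison, the 5 largest rises and falls between Adh and Susp cells, the 8 highest by RPKM, pairs with a called ratio and their sense genes, the 3 genes on each side of the count minimum, and snoRNA hosts. Alternatives were DESeq2 1.42.0, a replicate block, other scaling, filters, count minimums and prior counts, thinned counts, 2 groups alone and leaving out each library. Total human counts ran from 7758979 to 21467832 per library, and they limit what low genes can show. The start window of 1 called member is not reported here.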

Additional observations from a re-analysis of the deposited data

Results flagged for a closer look

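Among 33 groups of 4 libraries, 4 held a library far from the other 3 by Dixon's criterion, and chance alone gives about 1 in 20 such groups. SNHG12 had 38.3 CPM in Susp replicate 2, where the other Susp libraries had 26.5 to 28.1. MIR142 had 47.6 CPM in the same library, where the others had 23.0 to 24.6. GABPB1-AS1 had 34.4 CPM in Susp replicate 1, against 27.0 to 28.1 in the others. FGD5-AS1 had 101 CPM in Adh replicate 4, against 83.9 to 85.7 in the others.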

How the results depend on the processing

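Every fall of MIR142, SLC25A25-AS1, SNHG12 and GABPB1-AS1 in Adh cells kept its direction in all settings run, while the number of called members depended on the setting. Between Adh and Susp cells it was 5 with the replicate block, 5 with DESeq2 and 5 with no low-count filter, against 3. Between Susp and Sep cells it was 1 with the block, 2 with DESeq2, 3 with no filter and 1 with a mean of 20 counts as the minimum, against 0. Between Adh and Sep cells it was 6 with DESeq2, 6 with no filter, 5 with a minimum of 10 counts and 12 with a mean of 20 counts, against 3. Over all genes tested, the main fit called 0.778%, 0.731% and 2.4% in these 3 comparisons in that order. The block called 2.18%, 1.36% and 2.99%, DESeq2 2.19%, 1.34% and 4.1%, and no filter 1.2%, 0.765% and 1.77%. The other count minimums were read from the main fit. A minimum of 50 counts kept 43 members and a mean of 20 counts 201. Member pairs with a called ratio were 2 between Adh and Susp cells and 2 between Adh and Sep cells when both genes needed 20 counts in every library, and 0 between Adh and Sep cells with the block. The cause was not tested.

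Leaving out 1 library gave 0 to 3 called members between Adh and Susp, 0 to 1 between Susp and Sep and 0 to 6 between Adh and Sep cells, and 0 to 1 called ratios between Adh and Sep cells. The count between Adh and Susp cells was 0 without Adh replicate 1 or 3 and 1 without Adh replicate 4. The share of all genes called was 0.39%, 0.472% and 0.54% in that order, against 0.778% in the main fit. Between Adh and Sep cells the count of members was 0 without Sep replicate 2, 1 without Adh replicate 1 and 6 without Sep replicate 1 or Susp replicate 2. The share of all genes was 1.09%, 1.55%, 3.74% and 3.97% in that order, against 2.4%. Between Susp and Sep cells that share ran from 0.489% to 1.03%, against 0.731%. Between Susp and Sep cells, where no call was made, signs turned: MIR142 went from 0.08 to -0.14 without Sep replicate 1 and -0.25 without Susp replicate 2, SLC25A25-AS1 from 0.06 to -0.0078 without Sep replicate 3 and -0.015 without Susp replicate 1, and the GABPB1-AS1 ratio from -0.13 to 0.030 without Sep replicate 2. Over all single libraries left out, these values ran from -0.25 to 0.38, from -0.015 to 0.25 and from -0.23 to 0.030. Without Susp replicate 2, a setting added after seeing the data, members lower between Adh and Susp cells at an unadjusted p below 0.05 went from 9 to 5.

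The replicate numbers were not taken as pairs: the correlation of their deviations had to exceed 0.1 for every number, and did so for 1 of 4 between Adh and Susp cells (0.31, 0.058, -0.012 and -0.021), 1 of 4 between Susp and Sep cells (0.32, 0.021, 0.019 and 0.016) and 3 of 4 between Adh and Sep cells (0.31, 0.13, -0.0022 and 0.20). This rule does not show that libraries with the same number were unrelated, and the main fit leaves out any pairing there was. With the replicate block the calls over all genes were 281, 175 and 384 between Adh and Susp, Susp and Sep, and Adh and Sep cells, against 100, 94 and 309. DESeq2 gave 282, 172 and 527, and no low-count filter 341, 217 and 503. The fit with no low-count filter tested 28363 genes where the others tested 12861. Its calls were 1.2%, 0.765% and 1.77% of the genes tested, against 0.778%, 0.731% and 2.4% in the main fit.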
